A study of Mus musculus with 8 samples.

Results

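Mature adipocytes are large lipid-filled cells that secrete hormones, take up glucose under insulin, store triglyceride and release glycerol. In skin they lie in the dermal white adipose layer beneath the reticular dermis and around hair follicles. PPARG, a nuclear receptor that binds DNA with an RXR partner, drives their differentiation and many of their genes, and GW9662 is an irreversible antagonist of that receptor. The 10 genes described here, Adipoq, Retn, Lep, Adig, Cidea, Slc2a4, Aqp7, Pck1, Car3 and Dgat2, are transcripts of mature adipocytes. They were taken by name, as every probe set annotated to exactly 1 of these genes, which gave 16 of the 45141 probe sets on the array. Of the 10 genes, 6 had 1 probe set, 3 had 2 probe sets and Car3 had 4.

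The cells were dermal fibroblasts sorted from the back skin of mice, as 8 samples with 1 array each. The labels give an age of 12 months, which the treatment protocol gives as that of the mice when treated, so it is read here as the age at the start of treatment. In the GW9662 group (4 samples) the back skin received 150 nmol GW9662 in 300 µl acetone, and in the vehicle group (4 samples) 300 µl acetone alone, each 3 times a week for 6 months. The strain, the sex and any genetic change are not given in the sources used here. The subdermis was removed before digestion, and cells were sorted as positive for Pdgfra and CD34 and negative for CD45, CD117, CD24, CD31 and EpCam, so that each sample stands for a sorted pool of 5000 cells and not for whole skin. The gate holds no marker of mature adipocytes, and the removed subdermis is where most fat of the skin lies. In such bulk RNA, fewer cells of a type and less RNA per cell cannot be told apart.

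The signals of the 16 probe sets were low to intermediate in all 8 samples. Values are deposited log2 signals of the RMA method, on which a difference of 1 is a doubling, and single values of the 16 probe sets ran from 2.99 to 6.1. The mean over the 8 samples was below the median of all probe sets (4.65) in 12 of them and above it in 4, and 6 lay below percentile 25. None lay above percentile 75. No gene of the 10 differed between GW9662 and vehicle past the test, and the differences of the 16 probe sets ran from -0.10 to 0.16 on the log2 scale.

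Stretches before the start of 2 of the genes are shown because they hold letters that resemble elements known for adipocyte regulators, among them the receptor that GW9662 blocks. Of the 10 genes, 6 matched the RefSeq promoter table (build GRCm38.p6). The 250 bases before each start were searched on both strands for the direct repeat bound by PPARG with RXR (AGGTCA, any 1 base, AGGTCA), with up to 2 mismatches, and for the palindrome TTGCGCAA read by C/EBP factors, with none. The first was found at 2 places, both at Aqp7, and in 3.24% of the 32851 promoters of the table. The second was found at Lep, and in 0.164% of the promoters. Neither pattern overlaps the other at these genes. A match describes letters only and is not evidence of binding. Below, the last 100 bases before the upstream Aqp7 start (chr4:41048137-41048236, minus strand) and before the Lep start (chr6:29060121-29060220, plus strand) are given 5′ to 3′, with the match in capitals.
Aqp7: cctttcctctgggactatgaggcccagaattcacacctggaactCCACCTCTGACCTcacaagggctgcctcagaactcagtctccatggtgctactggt
Lep: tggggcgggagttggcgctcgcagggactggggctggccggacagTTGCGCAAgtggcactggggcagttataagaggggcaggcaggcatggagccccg

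**Figure D1:**
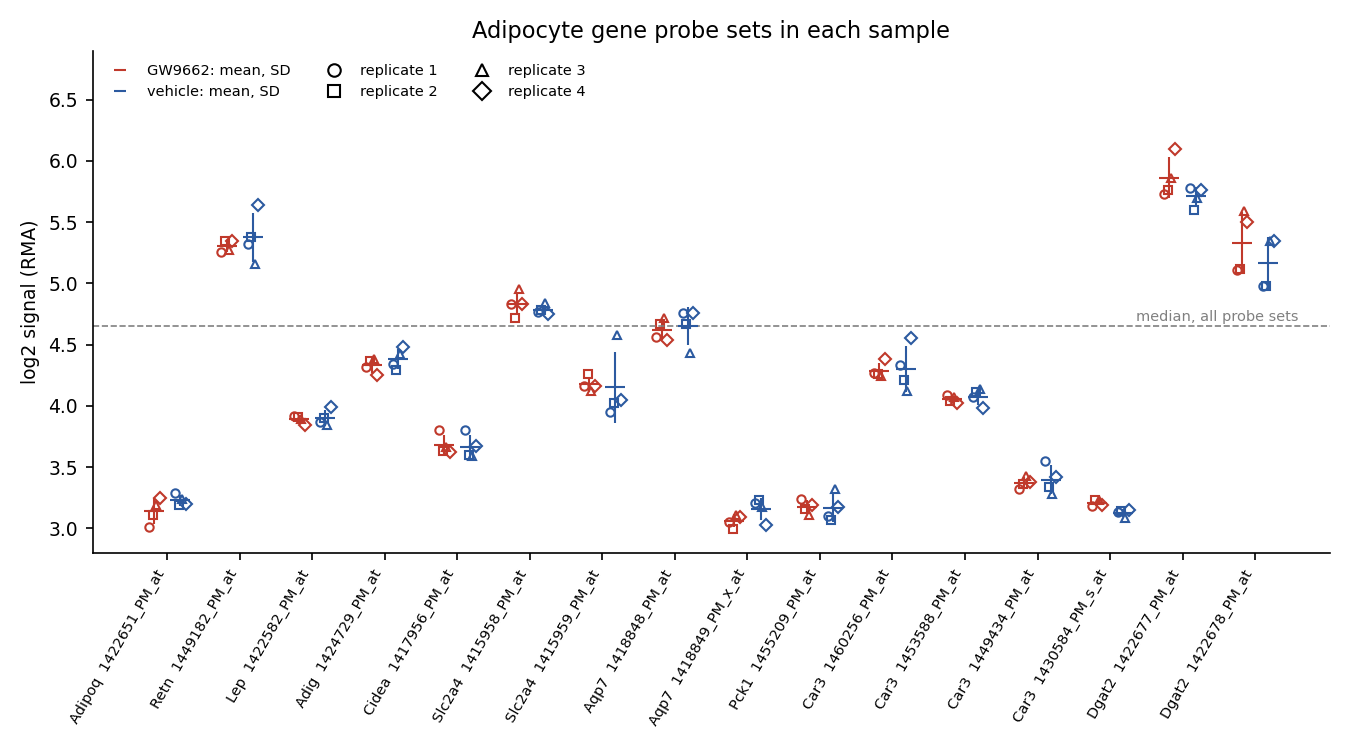
Log2 signal (vertical axis) of the 16 probe sets of the 10 adipocyte genes in each of the 8 samples, GW9662 left (red) and vehicle right (blue), with the marker shape giving the replicate number, and the mean and SD of each group (n = 4). The dashed line is the median of all probe sets, 4.65, and 4 of the 16 probe sets have a mean above it, both of Dgat2, that of Retn and the brighter one of Slc2a4.

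The secreted hormones had signals at very different places on the array. Adiponectin, encoded by Adipoq, is among the most abundant transcripts of fat tissue and raises insulin sensitivity. Its probe set measured 3.01, 3.11, 3.19 and 3.25 in the GW9662 samples 1 to 4, against 3.29, 3.19, 3.24 and 3.20 in the vehicle samples 1 to 4. The mean of 3.18 lay at percentile 8.4 of all probe sets, in the low tail of the array. The groups overlapped, with GW9662 1 the lowest of the 8 samples, and the log2 fold change was -0.09 (95% interval -0.24 to 0.06; limma adjusted p = 0.997), or -0.05 without GW9662 1. Leptin, encoded by Lep, signals the size of fat stores to the brain. Its probe set measured 3.92, 3.91, 3.89 and 3.84 in the GW9662 samples, against 3.87, 3.90, 3.84 and 3.99 in the vehicle samples. It lay at percentile 31.6 and had the smallest spread of the 16 probe sets, with an SD of 0.049 over the 8 samples, and its log2 fold change was -0.01 (95% interval -0.13 to 0.11). Resistin, encoded by Retn, is secreted by mouse adipocytes and opposes insulin action in mice. Its probe set measured 5.26, 5.35, 5.27 and 5.35 in the GW9662 samples, against 5.32, 5.38, 5.16 and 5.64 in the vehicle samples. All 4 GW9662 values lay inside the range of the vehicle values, which was set by vehicle 3 at the low end and vehicle 4 at the high end. The mean of 5.34 lay at percentile 61.8, and the log2 fold change was -0.07 (95% interval -0.28 to 0.14), or 0.02 without vehicle 4.

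Adig and Cidea, which act at the surface of lipid droplets or in adipocyte differentiation, were below the median of the array. Adig encodes adipogenin, a small membrane protein that increases during adipogenesis. It measured 4.32, 4.37, 4.38 and 4.25 in the GW9662 samples, against 4.34, 4.29, 4.42 and 4.48 in the vehicle samples, at percentile 43.6. The groups overlapped and the log2 fold change was -0.05 (95% interval -0.19 to 0.09), or -0.02 without vehicle 4. Cidea encodes a droplet fusion protein found in brown fat and in sebaceous glands. It measured 3.80, 3.63, 3.66 and 3.62 in the GW9662 samples, against 3.80, 3.60, 3.59 and 3.67 in the vehicle samples, at percentile 24.5. The 2 samples numbered 1 shared the highest value, 3.80, the groups overlapped, and the log2 fold change was 0.01 (95% interval -0.14 to 0.17).

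The transport genes gave signals near the median of the array with their brighter probe sets. Slc2a4 encodes the glucose transporter that insulin moves to the surface of fat and muscle cells. Its brighter probe set (1415958_PM_at) measured 4.83, 4.72, 4.95 and 4.83 in the GW9662 samples, against 4.77, 4.78, 4.84 and 4.75 in the vehicle samples, at percentile 52.9. The groups overlapped, with GW9662 2 the lowest and GW9662 3 the highest, and the log2 fold change was 0.05 (95% interval -0.09 to 0.19), or 0.0083 without GW9662 3. Its other probe set (1415959_PM_at) measured 4.16, 4.26, 4.12 and 4.16 in the GW9662 samples, against 3.95, 4.02, 4.58 and 4.05 in the vehicle samples. Vehicle 3 was the highest of the 8 there, while the other vehicle samples lay below all 4 GW9662 samples. The log2 fold change was 0.02 with all samples and 0.17 without vehicle 3. There the limma unadjusted p was 0.0247 and the adjusted p 0.982. Leaving out the highest vehicle sample by itself raises the difference, and this p is given because it fell under 0.05 among the alternatives. The share of all probe sets under 0.05 in that setting is not given here. Aqp7 encodes the channel through which adipocytes release glycerol during lipolysis, and its stretch shown above matches the direct repeat only with 2 mismatches. Its brighter probe set (1418848_PM_at) measured 4.56, 4.67, 4.72 and 4.54 in the GW9662 samples, against 4.76, 4.67, 4.43 and 4.76 in the vehicle samples, at percentile 49.8. All GW9662 values fell within the vehicle range, and the log2 fold change was -0.03 (95% interval -0.22 to 0.16). The dimmer probe set (1418849_PM_x_at), of a type whose probes may also bind other transcripts, measured 3.05, 2.99, 3.11 and 3.09 in the GW9662 samples, against 3.21, 3.23, 3.17 and 3.03 in the vehicle samples. Vehicle 4 lay among the GW9662 samples and the other 3 vehicle samples above them. Its log2 fold change, -0.10 (95% interval -0.24 to 0.04), was the lowest of the 16. It was -0.14 without vehicle 4, with a limma unadjusted p of 0.0349 and an adjusted p of 0.999. Leaving out the lowest vehicle sample by itself widens the difference, and this p too is given because it fell under 0.05. The share of all probe sets under 0.05 without vehicle 4 is not given here.

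Of the enzymes, Pck1 and Car3 were dim and Dgat2 was the brightest of the 10 genes. Pck1 encodes the cytosolic phosphoenolpyruvate carboxykinase, which supplies glycerol for triglyceride in adipocytes and glucose in liver. It measured 3.24, 3.16, 3.11 and 3.19 in the GW9662 samples, against 3.10, 3.07, 3.32 and 3.17 in the vehicle samples, at percentile 7.9. Vehicle 3 was the highest and vehicle 2 the lowest, and the log2 fold change was 0.01 (95% interval -0.14 to 0.16).

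Car3 encodes a cytosolic carbonic anhydrase that is abundant in fat and in skeletal muscle. The means of its 4 probe sets lay at percentiles 42.2, 36.4, 14.7 and 7.8, so that no probe set reached the median of the array. The brightest (1460256_PM_at) measured 4.27, 4.26, 4.24 and 4.38 in the GW9662 samples, against 4.33, 4.21, 4.12 and 4.55 in the vehicle samples, with a log2 fold change of -0.02 (95% interval -0.22 to 0.19). The dimmest (1430584_PM_s_at) measured 3.18, 3.23, 3.23 and 3.19 in the GW9662 samples, against 3.13, 3.14, 3.08 and 3.15 in the vehicle samples. There the groups did not overlap, as in 1 of the 16 probe sets and in 1.9% of all probe sets, and that share was made of 0.844% with GW9662 higher and 1.06% with GW9662 lower. The gap between the groups was 0.03 and the log2 fold change 0.08 (95% interval -0.03 to 0.19; limma adjusted p = 0.997). The other 3 probe sets of Car3 overlapped between the groups, each with a log2 fold change of -0.02.

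Dgat2 encodes the enzyme that adds the last fatty acid of triglyceride, and is also active in liver and sebaceous glands. Its brighter probe set (1422677_PM_at) measured 5.73, 5.76, 5.86 and 6.10 in the GW9662 samples, against 5.78, 5.60, 5.70 and 5.76 in the vehicle samples, at percentile 68.2. GW9662 3 and 4 lay above every vehicle sample, while GW9662 1 lay below vehicle 1. The log2 fold change was 0.15 (95% interval -0.04 to 0.35; limma unadjusted p = 0.111, adjusted p = 0.997), and it was 0.07 without GW9662 4. Its dimmer probe set (1422678_PM_at) measured 5.11, 5.12, 5.59 and 5.50 in the GW9662 samples, against 4.98, 4.98, 5.35 and 5.35 in the vehicle samples, at percentile 60.4. Samples 3 and 4 were higher than samples 1 and 2 in both groups, so the groups overlapped, with a log2 fold change of 0.16 (95% interval -0.14 to 0.47). It was 0.078 without GW9662 3, 0.11 without GW9662 4, and 0.10 without vehicle 1 or without vehicle 2. The GW9662 sample of each number was higher than the vehicle sample of that number in 4 of 4, by 0.13, 0.14, 0.24 and 0.15. The share of all probe sets with 4 of 4 pairs on 1 side is not given here, so that count is only a description. With the number as a block the same log2 fold change had an unadjusted p of 0.0261 and a limma adjusted p of 0.975.

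**Figure D2:**
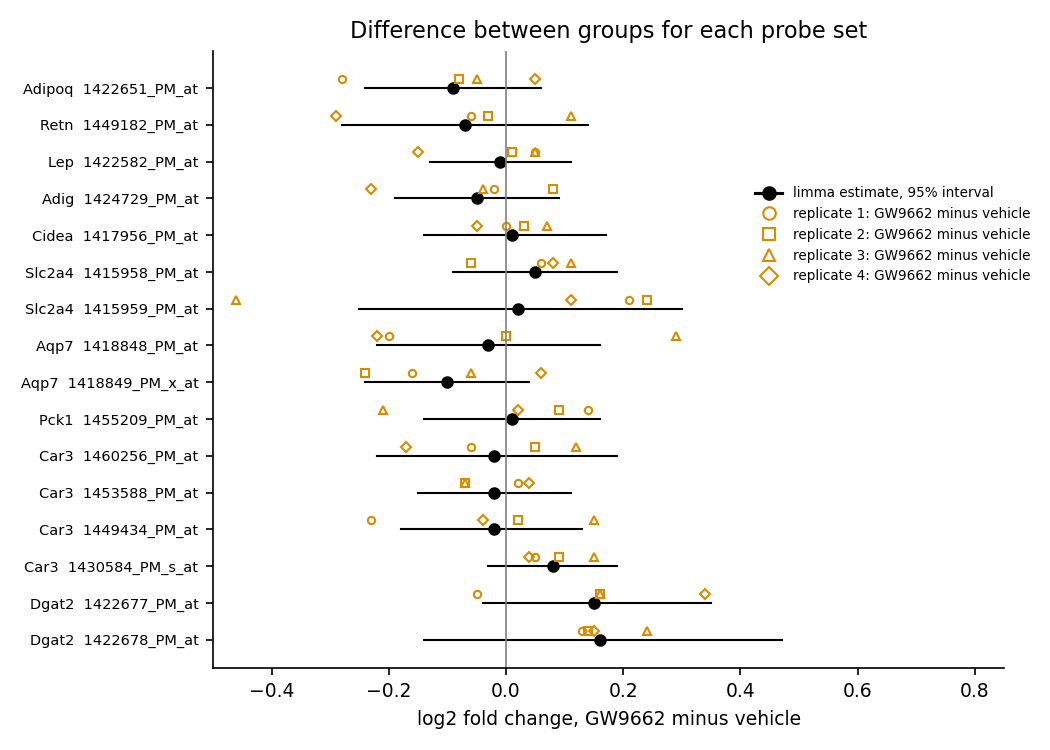
Log2 fold change, GW9662 minus vehicle (horizontal axis), of the 16 probe sets, with the limma estimate and its 95% interval in black and the difference of each same-numbered pair of samples in orange. All 16 intervals, from the test without pairs, contain 0. The pair differences of the dimmer Dgat2 and the dimmest Car3 probe sets are all above 0. With the number as a block, that Dgat2 probe set had a limma unadjusted p of 0.0261 (adjusted p = 0.975). The share of all probe sets with 4 of 4 pairs on 1 side is not given here.

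Set against all probe sets, the comparison of GW9662 with vehicle called none of the 16 and none of the 45037 that were tested, or 0% at a limma adjusted p under 0.05 (smallest adjusted p = 0.997). In this unpaired test the unadjusted p was under 0.05 for 0 of the 16, and for 1597 of all, or 3.55%. With the number as a block, the dimmer Dgat2 probe set had a limma unadjusted p of 0.0261 and an adjusted p of 0.975. By any amount 7 of the 16 were higher and 9 lower after GW9662. The median log2 fold change was -0.0125 over the 16 and -0.0025 over all probe sets. In the unpaired test, the interval of the difference lay within 0.25 to either side of 0 for 12 of the 16. The widest upper bound there, 0.47 for the dimmer Dgat2 probe set, allows a rise of up to 1.39-fold. That interval also carries the difference between sample numbers, which was seen in both groups of that probe set. A missed threshold does not show that the groups were alike, and for a probe set near the floor of the array a change in transcript may alter the signal little.

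For the place of these genes among the cell types of skin, each gene was represented by its brightest probe set. Probe sets differ in how well they bind, so a percentile is a place in the distribution of signals and not an amount of transcript. The fibroblast list had all 12 genes above the median of the array, with a median percentile of 99.5, led by Dcn, decorin, at 12.63. Cd34, one gene of the positive sort markers, lay at percentile 99.2. Pdgfra, the other, measured 4.91, at percentile 54.8, so that a gene whose protein the cells were sorted on also gave a signal near the middle of the array. The 10 adipocyte genes had a median percentile of 42.9 and ran from 7.9 to 68.2. As a low mark, 15 measured genes of other organs, such as Alb of liver, Umod of kidney and Prm1 of sperm, had a median percentile of 40.6 and ran from 3.6 to 82.0. None of the 10 adipocyte genes gave more signal than the highest of those 15. Above Dgat2 there were 2 of the 15, above Retn 3, and above Adipoq and Pck1 14 each. The 2 above Dgat2 (5.79) were Prm1 (1415955_PM_x_at, 6.93) and Ins2 (1422446_PM_x_at, 5.90). Both are of the type whose probes may also bind other transcripts. The next of the 15, Neurod1, lay at 5.63, below Dgat2.

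**Figure D3:**
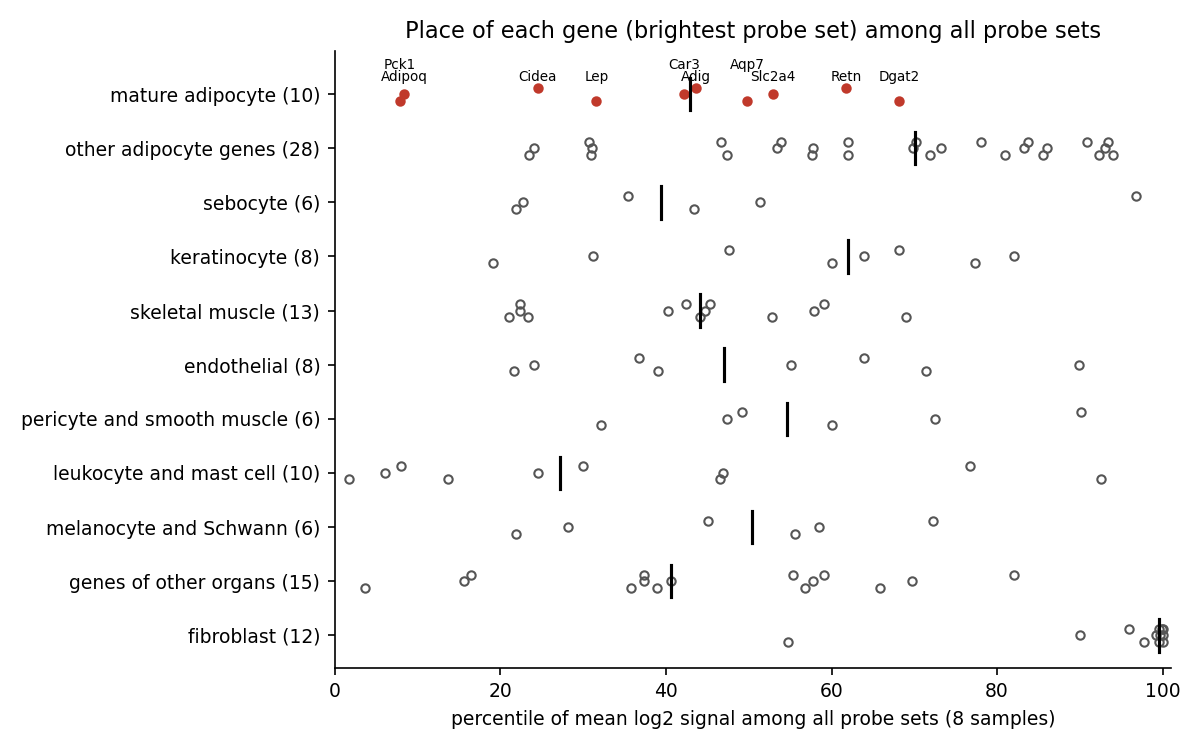
Percentile of the mean log2 signal of each gene among all probe sets (horizontal axis), with 1 point per gene at its brightest probe set, a black bar at the median of each list, and the number of measured genes in brackets. The 10 adipocyte genes (red, named) run from 7.9 to 68.2, within the span of the genes of other organs (3.6 to 82.0). Of the 12 fibroblast genes, 11 lie above that span. Its top is Prm1, from a probe set whose probes may also bind other transcripts.

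Other genes of adipocytes spread over a higher part of the array, which is given as a description with no test. Of 36 listed, 28 were measured, with a median percentile of 70.1, and 15 of them gave more signal than Dgat2. Plin1, Cidec, Cfd and Adrb3 were among those not counted as measured, as no probe set was annotated to 1 of them alone. Probe sets with no gene name or with several were not searched, so the array may still hold them. The list is not limited to genes of adipocytes alone, so its median percentile is not a measure of adipocyte signal. Chosen after their values were seen, the bright ones included Lpl, the lipase that frees fatty acids from lipoproteins, at 8.19, and Cebpa, an adipogenic transcription factor, at 8.39. Acly (8.52), Irs1 (7.96) and Fasn (7.06) were also among them. The fatty acid carriers Fabp4, at 3.87 (percentile 31.1), and Cd36, at 3.66 (percentile 24.1), lay lower. So did Slc7a10 (percentile 23.4), Lgals12 (percentile 30.7) and Acvr1c (percentile 30.9), which are described below. Of the 28, 10 were higher and 18 lower after GW9662 by any amount, and their log2 fold changes had a median of -0.024. The limma test called 0 of them over all probe sets, and the unadjusted p was under 0.05 for 1. The 3 of smallest p in the unpaired test were Acvr1c, an activin-type receptor of adipocytes, at -0.31 ± 0.117 (SE), Ucp1, the uncoupling protein of brown fat, at -0.12 ± 0.069, and Lgals12, a galectin of lipid droplets, at 0.10 ± 0.070. Acvr1c measured 3.75, 3.75, 3.79 and 3.57 in the GW9662 samples, against 4.34, 3.99, 4.05 and 3.72 in the vehicle samples, and was lower in 4 of 4 pairs (adjusted p = 0.997), though vehicle 4 lay among the GW9662 values, and its difference was -0.21 without vehicle 1. Ucp1 was lower in 3 of 4 pairs and Lgals12 higher in 3 of 4, and without GW9662 2 Lgals12 stood at 0.06. Named after their values were seen, Lipe, the hormone-sensitive lipase, was lower in 4 of 4 pairs, by 0.14, 0.11, 0.10 and 0.19, while Cebpa, at 0.50, 0.05, 0.14 and 0.10, and Slc7a10, an amino acid transporter, at 0.05, 0.04, 0.11 and 0.11, were higher in 4 of 4. With the number as a block the limma unadjusted p was 0.00687 for Acvr1c, 0.0531 for Lipe, 0.0546 for Cebpa and 0.225 for Slc7a10, and each adjusted p was 0.975. Of the 28, 2 were lower and 2 higher in 4 of 4 pairs, and that unadjusted p was under 0.05 for 1. The matching shares of all probe sets are not given here, so these counts are only a description. Without GW9662 1, Lipe stood at -0.05 (-0.14 with all samples) and Cebpa at 0.08 (0.20 with all samples). Pparg itself measured 5.0, 4.90, 5.05 and 4.46 in the GW9662 samples, against 4.63, 4.75, 4.99 and 5.13 in the vehicle samples. GW9662 4 was the lowest and vehicle 4 the highest of these, and the groups overlapped (log2 fold change -0.02, 95% interval -0.35 to 0.30).

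Several of the 10 genes are shared with other cells of skin, so marker lists of those cells are given beside them. The sebocyte list had 6 of 10 genes measured, with a median percentile of 39.4, and the skeletal muscle list all 13, with a median percentile of 44.1. The medians were 62.0 for keratinocytes, 47.1 for endothelial cells, 54.6 for pericytes and smooth muscle, 27.3 for leukocytes and mast cells, and 50.4 for melanocytes and Schwann cells. The mean over the sebocyte list lay between 4.89 and 5.03 in the GW9662 samples and between 4.86 and 4.96 in the vehicle samples. For skeletal muscle it was 4.36 to 4.39 in the GW9662 samples and 4.38 to 4.47 in the vehicle samples, and for the 10 adipocyte genes 4.29 to 4.34 in the GW9662 samples and 4.27 to 4.40 in the vehicle samples. The unadjusted p was under 0.05 for 1 sebocyte gene, Krt79, a keratin of sebaceous ducts, at 0.16 ± 0.059 (SE), and 1 muscle gene, Tnnt3, a troponin of fast muscle, at -0.21 ± 0.072, both with a limma adjusted p of 0.997. The lists of fibroblasts, keratinocytes, endothelial cells, pericytes, leukocytes and melanocytes and the genes of other organs had 0. The part of such cells in the adipocyte signals was not tested.

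Over the 8 samples the adipocyte probe sets varied little. Their SD over all samples ran from 0.049 to 0.233 with a median of 0.085, against a median of 0.114 over all probe sets and of 0.094 over those dimmer than the median of the array. The SD exceeded that of the median probe set in 6 of the 16, and the range over the samples exceeded 0.5 in 2, the dimmer probe sets of Slc2a4 (0.63) and Dgat2 (0.61). No sample was high throughout. Vehicle 4, which lay farthest out on the first principal component of all probe sets, was the highest of the 8 in 5 of the 16 and the lowest in 1. Vehicle 3 was the lowest in 7 and the highest in 3. The vehicle group had the larger SD in 12 of the 16 probe sets and in 59.2% of all, and without vehicle 4 in 10 of the 16 and 49.5% of all.

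**Figure D4:**
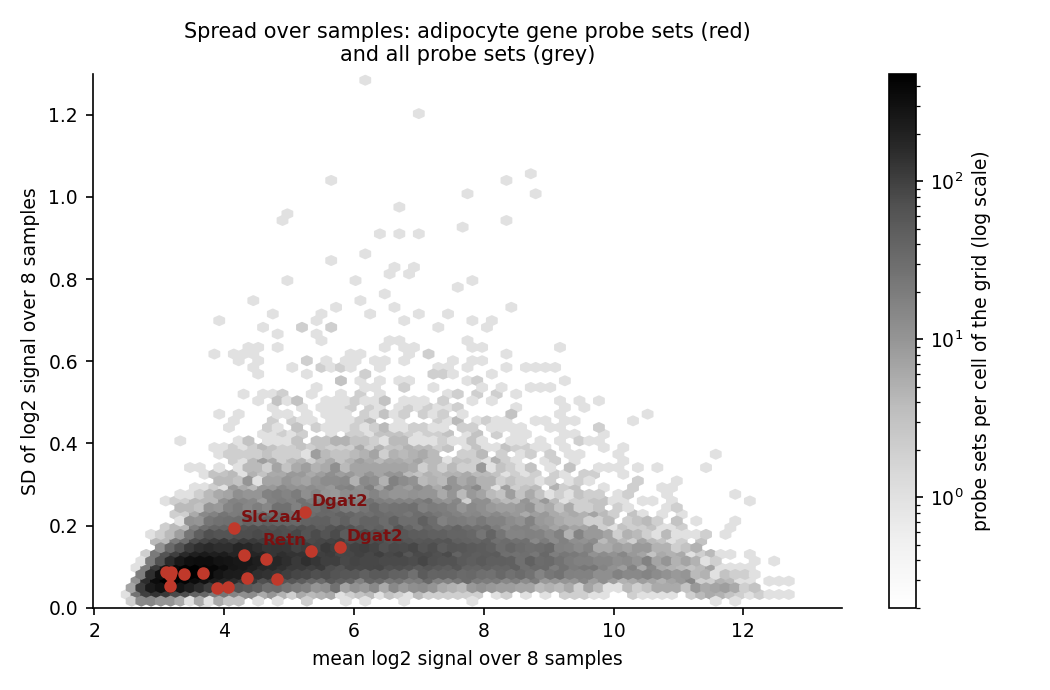
SD of the log2 signal over the 8 samples (vertical axis) against its mean (horizontal axis) for all probe sets (grey, shaded by number on a log scale) and for the 16 adipocyte probe sets (red, named where the SD is above 0.13). Most of the 16 lie in the dense part of the array, and the dimmer probe sets of Dgat2 (SD 0.233) and Slc2a4 (SD 0.194) stand highest.

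No pair of the 10 genes varied together from sample to sample past the test. Between their brightest probe sets, 45 pairs were compared over the 8 samples. Pearson's r was positive in 25 and negative in 20, with a median of 0.04. By exact permutation 3 pairs had an unadjusted p under 0.05 for Pearson's r and 0 for Spearman's rho, and none passed adjustment over the 45 pairs. The highest was Retn with Car3 (r = 0.88, exact permutation p = 0.00987, adjusted p = 0.247; rho = 0.49, exact permutation p = 0.222, adjusted p = 0.81). Its r was 0.05 without the 2 samples farthest from the median of Retn. Leaving out such samples also narrows the range, which can itself lower r, so what the correlation rested on was not tested. Aqp7 with Pck1 ran the opposite way (r = -0.83, exact permutation p = 0.011, adjusted p = 0.247; rho = -0.67, exact permutation p = 0.0772, adjusted p = 0.81), and r was -0.59 without the 2 samples farthest from the median of Aqp7. Retn with Lep was the third (r = 0.78, exact permutation p = 0.0354, adjusted p = 0.531; rho = 0.43, exact permutation p = 0.288, adjusted p = 0.81), and without the 2 samples farthest on Retn its r was -0.30. Probe sets of 1 gene did not always run alike over the 8 samples, so these pairs hold for the probe sets used. Pearson's r was -0.05 between the probe sets of Aqp7, 0.18 for Slc2a4 and 0.65 for Dgat2. For Car3 it ran from -0.92, between the brightest and 1453588_PM_at, to 0.49. Adipoq was most alike in pattern over the 8 samples to Dcun1d1 (r = 0.968), Trpm2, Bmyc, Itsn1 and Eif4b (r = 0.953). The dimmer Dgat2 probe set was most alike to Jmjd1c (r = 0.959), Siah1a, Maco1, Fbxo42 and Cwf19l1 (r = 0.944). These are the highest of 15171 probe sets compared over only 8 samples, and are given as a description.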

How the data were processed

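The deposited values are log2 signals from RMA (affy), per the submitters' processing notes, which give no versions. RMA corrects background, equalises the arrays and summarises probes. The base was read from the range of 2.44 to 12.96. RNA of 5000 cells was amplified over 21 cycles, which can change relative signals. No detection calls were used. The sample medians lay between 4.63 and 4.69.

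Gene names came from the platform annotation, with symbols updated by gene number. Of 45141, 28898 had 1 gene, 551 several and 15692 none, and 104 controls were left out. GW9662 minus vehicle was tested by lmFit and eBayes without covariates (limma 3.58.1, R 4.3.3), with Benjamini-Hochberg adjustment over 45037 probe sets, two-sided, at 0.05. The procedure was tested on simulated data. By a fixed rule the text names every probe set of the 10 genes, Pparg, Cd34 and Pdgfra, the 3 genes of smallest p of each other list, and the closest patterns. Genes outside this rule, such as Lipe, Cebpa, Slc7a10, Lpl, Fabp4 and Dcn, were named after their values were seen. Members and lists were chosen with earlier results of these data known. For arrays, the number of samples limits the precision.

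Per the series' description, 1 animal of each group was taken per day. The correlation of deviations from the group mean between samples of 1 number was 0.218, 0.157, 0.108 and 0.147 for numbers 1 to 4, so the numbers were read as pairs. The main test and every interval printed here leave these pairs out. The replicate block was fitted as an alternative, and its intervals are not given here. Samples correlated at 0.9899 to 0.9964 and none was a duplicate. P-values measure the spread between these samples.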

Additional observations from a re-analysis of the deposited data

Results flagged for a closer look

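In the second Slc2a4 probe set (1415959_PM_at), vehicle 3, at 4.58, stood apart from the other vehicle samples by 0.841 of the range of its group, above Dixon's 95% limit for 4 samples. It was the 1 such value among 32 groups of 4 tested for the 16 probe sets, and chance alone gives about 1 in 20 groups. The brighter Slc2a4 probe set had 4.84 in the same sample.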

How the results depend on the processing

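No probe set of the 10 genes and none of the array passed a limma adjusted p under 0.05 in the main test or in the 17 alternatives, nor at 0.1, and the lowest adjusted p of any of the 16 in any setting was 0.949. The unadjusted count over the array was 1597, and 533 to 2271 in the alternatives. The replicate block, for samples read as pairs, changed no call. With 1 sample of each group per number it cannot alter a log2 fold change, so the median of the 16 stayed at -0.0125. Over the brighter probe sets alone, which hold 4 of the 16 with both of Dgat2 among them, the median was 0.10. It was -0.021 to 0.013 with 1 sample left out. Without vehicle 4 and GW9662 4, an alternative added once the values were known, it was 0.018. Of 242 single values under alternatives, which include settings such as the replicate block that cannot alter them, 28 had the other sign. The cause was not tested. Those 28 came from other settings. Without vehicle 4 and GW9662 4 the values of the other sign were Retn at 0.0067, Lep at 0.037, Adig at 0.0067 and the dimmer Slc2a4 at -0.0033. The brighter Aqp7, at 0.03, and the brightest Car3, at 0.037, also had the other sign there. With array weights they were Lep at 0.0035 and the brightest Car3 at 0.0028, and Car3 was at 0.0056 when its probe sets were averaged. With 1 sample left out, the ranges that crossed 0 were -0.14 to 0.021 for Retn, -0.03 to 0.02 for Lep, -0.028 to 0.058 for Cidea, -0.042 to 0.17 for Slc2a4 (1415959_PM_at), -0.11 to 0.0025 for Aqp7 (1418848_PM_at) and -0.022 to 0.062 for Pck1. For Car3 they were -0.076 to 0.068 (1460256_PM_at), -0.052 to 0.0017 (1453588_PM_at) and -0.064 to 0.026 (1449434_PM_at). The 4 probe sets above the median of the array became 3 against named probe sets alone, also added later, and 4 or 5 with 1 sample left out. Low signal over background limits the dim probe sets.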

Other observations

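Among the cell type lists beside the adipocyte genes, the 3 genes of smallest p in each are given as values (log2 fold change, GW9662 minus vehicle), and each had a limma adjusted p of 0.997. Leaving out 1 sample moved 23 of these 27 values by over 1.5 times, all but Krt79, Far2, Tnnt3 and Tnp1, and 27 kept their sign. Choosing the smallest p in these same data favours a kept sign, so that count is no check of stability. In the sebocyte list, 4 of 6 genes were higher by any amount, with Krt79 at 0.16, Far2, a fatty acyl reductase, at 0.16 and Mc5r, the melanocortin receptor of sebaceous glands, at 0.06. In skeletal muscle 7 of 13 were lower, with Tnnt3 at -0.21, Casq1, a calcium store protein, at -0.20 (-0.11 without vehicle 4) and Tnni2 at -0.08. Keratinocyte genes were lower in 5 of 8, with Trp63, the regulator of epidermal basal cells, at -0.25 (-0.14 without GW9662 3), Krt15 at -0.09 and Sfn at -0.05. Endothelial genes were lower in 4 of 8, with Tek, the angiopoietin receptor, at -0.38 (-0.22 without vehicle 4), Cldn5 at 0.13 and Pecam1 at 0.12 (0.03 without GW9662 4). For pericytes and smooth muscle 4 of 6 were lower, with Kcnj8, a potassium channel of pericytes, at -0.39 (-0.21 without GW9662 3), Acta2 at 0.15 (0.07 without vehicle 4) and Myh11 at -0.27 (-0.14 without vehicle 3). Leukocyte and mast cell genes were lower in 7 of 10, with Cd3e at -0.11 (-0.06 without GW9662 2), Cpa3 at 0.08 and Cd74 at -0.09. In the melanocyte and Schwann list 3 of 6 were lower, with Mlana, a melanosome protein, at 0.45 (0.13 without GW9662 1), Dct at 0.09 and S100b at -0.13 (-0.03 without GW9662 3). Fibroblast genes were lower in 6 of 12, with Lum at 0.14 (0.01 without vehicle 4), Mfap5 at -0.08 (-0.02 without vehicle 3) and Dpt at -0.06. Of the genes of other organs, 10 of 15 were lower, with Scgb1a1 at -0.20 (-0.13 without GW9662 3), Tnp1 at -0.08 and Tnni3 at -0.13.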
